A study of Mus musculus with 16 samples.

Results

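Regions of open chromatin that were called at DN, DP, SP4 and SP8 and that lay far from every protein-coding promoter are described here. DN, DP, SP4 and SP8 stand for double negative, double positive, CD4 single positive and CD8 single positive thymocytes, stages of T cell development in the thymus. All cells were sorted by flow cytometry from thymi of wild type C57BL/6J mice at 9 weeks of age. ATAC-seq, in which a transposase cuts accessible DNA and tags it for sequencing, was done on each stage of 4 mice, 16 libraries in all. The reads of the 4 mice were pooled before peaks were called, so each stage is 1 list of peaks, with no spread between mice and no test between stages.

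Members were chosen by peak presence, width and distance. Peaks of the 4 lists were merged where they shared at least 1 bp, which gave 185978 regions. Of these, 57855 were at most 1000 bp wide and held a peak of every stage, and 11372 of the 57855 had their nearest edge more than 50 kb from every transcription start site (TSS) of a protein-coding transcript in GENCODE M21. These 11372 are called far shared regions below. A further 306 far regions called at all 4 stages were wider than 1000 bp and were left out. The main comparison group is the 32414 shared regions that met the same width limit and lay 2 to 50 kb from a TSS, and a second group is the 14069 within 2 kb. "Far" holds for protein-coding transcripts only. 20.9% of the far shared regions (95% Wilson interval 20.2 to 21.7) lay within 5 kb of the TSS of some other GENCODE transcript, and 3.81% overlapped one.

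Promoters sit at TSSs, whereas enhancers, silencers and boundary elements can sit very far from the gene they act on and reach it by looping of the DNA. CTCF, a zinc finger protein, marks many boundaries and loop anchors. In thymocytes, distal elements are bound by RUNX, ETS, TCF7/LEF1 and GATA3 proteins and by the E proteins TCF3 (E2A) and TCF12 (HEB), which recognise E-boxes. The receptors of T cells are assembled by V(D)J recombination in very long loci, which are opened by distal enhancers of their own.

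The highest far shared region of each of the 5 T cell genes with the most far shared regions is shown first, so that the motifs of these factors can be seen in place. They were picked after their values were seen. Each sequence is the 121 bp around the median summit of the 4 lists, read 5′ to 3′ on the plus strand of mm10, with matches to the CTCF, RUNX (TGTGGT), ETS (CCGGAAG or CAGGAAG) and E-box (CAGCTG or CAGGTG) motifs on either strand in capitals.
Sox4, chr13:28720323-28720443: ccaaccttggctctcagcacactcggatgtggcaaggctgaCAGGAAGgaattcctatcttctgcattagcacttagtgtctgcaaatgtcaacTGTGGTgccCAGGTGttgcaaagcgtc
Runx1, chr16:92884080-92884200: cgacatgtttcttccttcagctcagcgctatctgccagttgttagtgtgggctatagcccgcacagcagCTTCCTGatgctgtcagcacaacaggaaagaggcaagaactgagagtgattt
Id2, chr12:25155481-25155601: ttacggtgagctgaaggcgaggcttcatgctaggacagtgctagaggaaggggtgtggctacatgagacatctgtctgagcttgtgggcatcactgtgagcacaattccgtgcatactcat
Satb1, chr17:51502660-51502780: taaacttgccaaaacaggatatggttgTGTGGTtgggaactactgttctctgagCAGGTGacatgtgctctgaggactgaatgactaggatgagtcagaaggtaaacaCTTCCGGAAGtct
Bcl11b, chr12:107884812-107884932: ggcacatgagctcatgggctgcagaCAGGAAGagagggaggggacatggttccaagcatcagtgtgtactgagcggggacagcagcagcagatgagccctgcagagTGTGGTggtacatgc
The *Satb1* sequence held a RUNX, an E-box and 2 overlapping ETS matches, and the *Sox4* sequence 1 match of each of these 3 families. The *Id2* sequence held none. Fold enrichment, the height of a peak over its local background as MACS2 gives it, was even over the stages in the *Satb1* region, at 24.2 in DN, 21.9 in DP, 26.0 in SP4 and 26.0 in SP8. The *Id2* region was lower in DP, at 11.9, than in DN (20.8), SP4 (24.3) and SP8 (23.3).

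The far shared regions lay a median of 95.2 kb from the nearest protein-coding TSS, with quartiles of 66.9 and 157 kb. 46.8% were beyond 100 kb, 16.3% beyond 200 kb and 2.24% beyond 500 kb, and 9 were beyond 1000 kb. They were downstream of the nearest TSS in 59.1% of cases. Far sequence made up 52.4% of the 19 autosomes and held 9.07 far shared regions per Mb, against 40.7 other shared regions per Mb in the sequence within 50 kb of a TSS. The density of far shared regions ran from 6.34 per Mb on chromosome 4 to 13.7 per Mb on chromosome 17.

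45.1% of the far shared regions (44.2 to 46.1) were intergenic, that is outside every GENCODE gene body, and 39.7% were inside the body of a protein-coding gene. The other 15.2% were inside bodies of other genes only. Among the regions 2 to 50 kb from a TSS the intergenic share was 34.6% (34.1 to 35.1), and 59.1% were inside a protein-coding gene. An exon was overlapped by 9.72% of the far shared regions and by 16.2% of those 2 to 50 kb away. These intervals cover counting error only, and neighbouring regions are not independent of each other.

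The 4 regions just inside the distance limit were 50002 to 50013 bp from a TSS, nearest to *Trim37*, *Pygl*, *Slc13a4* and *Hey1*, with median percentiles of 39.3 to 76.2. A percentile is the rank of a peak's fold enrichment in its own list, and the median is over the 4 lists. The DN list held 150139 peaks and the others 104411 to 115074, so percentiles of different stages are not directly comparable. The 4 regions just outside were 49971 to 49989 bp away, nearest to *Cyld*, *1700029F12Rik*, *Kctd1* and *Proser2*, with median percentiles of 42 to 95.1.

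The 8 most distant regions were 1204 to 2140 kb from a protein-coding TSS. The most distant, chr1:102628157-102628370, was 2140 kb from *Cdh20*, a cadherin gene, in intergenic sequence. It was a tall peak at every stage, with a fold enrichment of 26.6 in DN, 33.9 in DP, 42.7 in SP4 and 17.9 in SP8. A pair of regions 1638 and 1652 kb from *Kcnt2*, a potassium channel gene, and a pair 1304 and 1324 kb from *Sel1l* followed. The *Sel1l* region at 1324 kb was low in DP, at 4.68, against 21.5 in DN, 28.6 in SP4 and 25.7 in SP8. The region 1254 kb from *Zeb2*, which encodes a zinc finger repressor, was highest in DN, at 33.1, and 10.3, 13.3 and 19 in DP, SP4 and SP8.

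The remaining 2 of the 8 most distant regions lay 1239 and 1204 kb downstream of *Gata3*, the transcription factor gene needed for CD4 T cells. Their summits are shown as the far end of the *Gata3* desert. The first stretch held an E-box and a CTCF match. The second held an E-box match, and a CTCF match lay outside the printed bases but inside the 300 bp window used for the motif counts below.
Gata3, chr2:8639427-8639547: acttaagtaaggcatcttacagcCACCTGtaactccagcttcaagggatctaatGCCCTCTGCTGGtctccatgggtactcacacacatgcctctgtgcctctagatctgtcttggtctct
Gata3, chr2:8674071-8674191: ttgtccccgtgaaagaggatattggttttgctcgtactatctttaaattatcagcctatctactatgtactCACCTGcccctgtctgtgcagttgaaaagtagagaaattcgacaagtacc
Both were modest peaks. The first had a fold enrichment of 7.32 in DN, 3.51 in DP, 4.74 in SP4 and 4.15 in SP8. The second had 7.76, 7.02, 12.2 and 7.42 at the same stages. *Gata3* had 24 far shared regions in all, each of them downstream, from 54.4 to 1239 kb away. The highest, 384 kb away at chr2:9493680-9494267, was even over the stages, at 27.8 in DN, 29.8 in DP, 33.1 in SP4 and 29.8 in SP8.

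Far shared regions gathered around a minority of genes, and were denser around the T cell genes listed here than around genes as a whole. Of 20757 protein-coding genes, 2824 were nearest to at least 1 far shared region, 13.6% of all and 43.0% of the 6561 that have far sequence nearest to them. Among 62 genes of T cell transcription factors the number was 39, or 86.7% of those with far sequence, and these held 564 far shared regions, 38.2 per Mb of their far sequence. Among 50 genes of T cell receptors, signalling and survival it was 21, with 202 far shared regions, 41.4 per Mb. Among 50 genes of neuronal adhesion and the synapse, which sit in long gene deserts, it was 10, with 32 far shared regions, 0.399 per Mb over 80.2 Mb of far sequence. The density over all genes was 9.07 per Mb. These gene lists were chosen with earlier results of these data known. The density of shared regions nearer to a TSS was not counted for them, so the contrast may not be particular to far regions.

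**Figure D1:**
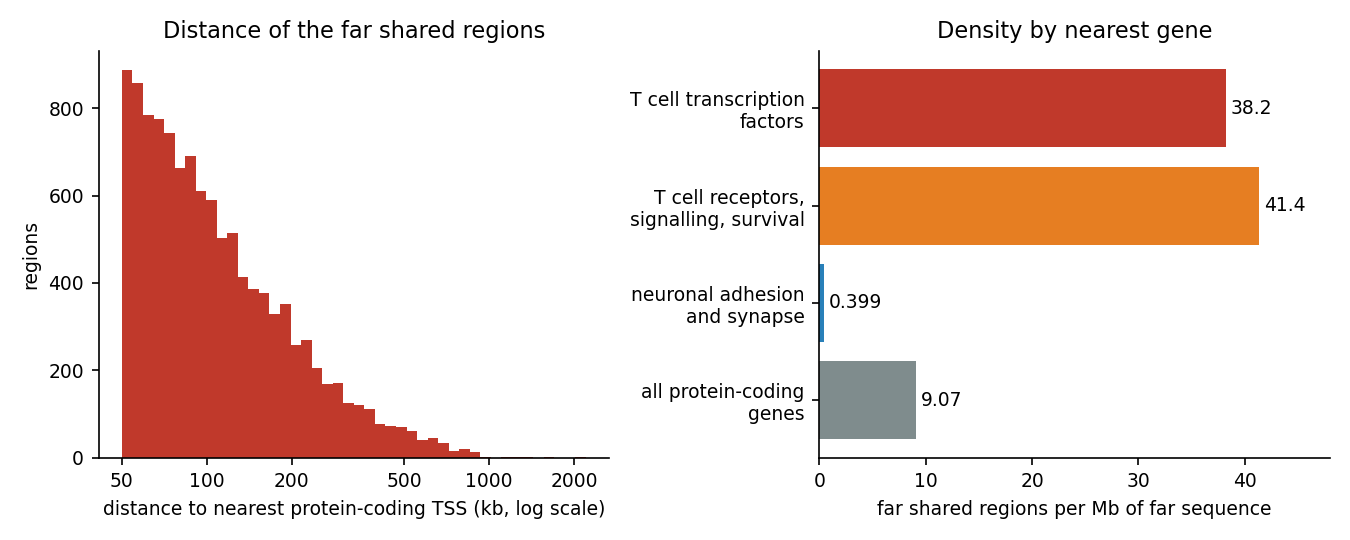
Left, the number of far shared regions by distance to the nearest protein-coding TSS, in kb on a log scale; the median is 95.2 kb. Right, far shared regions per Mb of far sequence by the list that the nearest gene belongs to. Both T cell lists stand above 38 per Mb, all protein-coding genes at 9.07 and the neuronal list at 0.399. The lists were chosen with earlier results of these data known.

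Of the transcription factor genes, *Sox4*, which encodes an HMG box factor, was nearest to 40 far shared regions, the largest number in the list. *Runx1*, which encodes a RUNX factor of T and blood stem cells, had 36. *Id2*, whose product blocks E proteins, had 34, and *Satb1*, which encodes an organiser of chromatin in thymocytes, had 33. *Bcl11b*, the gene of the T cell commitment factor, had 31, of which 30 were downstream and 17 formed 1 run of 68.1 kb. The run began 187 kb and ended 254 kb from the TSS. *Foxo1* had 29, *Myc* 28, *Maf* 25, *Tox* 22 and *Lef1* 20.

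The stage at which a region was highest was taken from fold enrichment divided by the median of its list. Over all far shared regions, 36.6% were highest in DN, 20.5% in DP, 25.3% in SP4 and 17.6% in SP8. Of the 25 regions of *Maf*, 16 were highest in DN, and their median percentiles were 93.0 in DN, 80.7 in DP, 75.6 in SP4 and 73.7 in SP8. Of the 31 regions of *Bcl11b*, 6 were highest in DN and 9 in SP8, with median percentiles of 42.8 in DN, 58.3 in DP, 53.2 in SP4 and 63.2 in SP8. The 40 regions of *Sox4* were spread over the stages, with 10 highest in DN, 9 in DP, 12 in SP4 and 9 in SP8. These counts describe 1 list per stage on 1 scale, and the balance of DN and DP given below depended on the scale.

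Of the genes of receptors, signalling and survival, *Tgfbr2*, a receptor of TGF-β, had 27 far shared regions. *Bcl2l11*, which encodes the death factor BIM, had 22, and *Ptprc*, which encodes CD45, had 18. *Cxcr4*, a chemokine receptor of early thymocytes, had 16, and *Bcl2*, *Prkcq* and *Rasgrp1* had 15 each. In all, 36 transcription factor genes and 17 of the other genes had 3 or more.

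**Figure D2:**
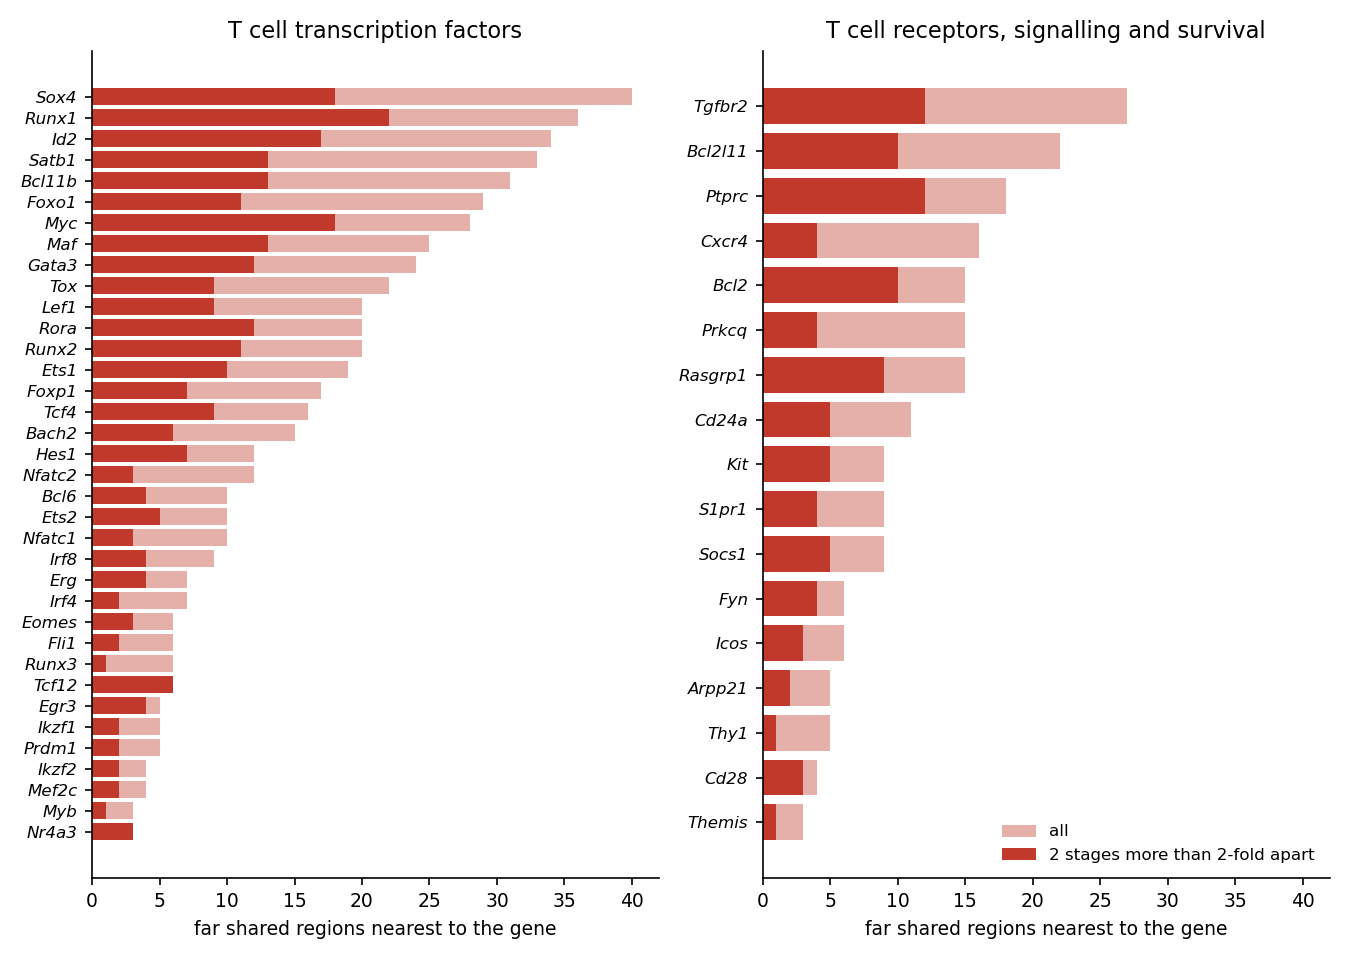
Far shared regions nearest to each T cell gene with 3 or more (pale bars), and how many of them differed by more than 2-fold between 2 stages (dark bars). *Sox4* leads the transcription factors with 40 and *Tgfbr2* the other list with 27.

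Some of the highest regions of these genes were even over the stages and others were not. The highest region of *Cxcr4*, 74.9 kb from its TSS, had a fold enrichment of 34.3 in DN, 31.4 in DP, 33.0 in SP4 and 34.6 in SP8. The highest region of *Ptprc*, 505 kb away, was 5.54 in DN against 24.1 in DP, 30.5 in SP4 and 25 in SP8. That of *Cd28*, which encodes a costimulatory receptor of T cells, was 9.09 in DN and 5.61 in DP against 31.2 in SP4 and 28.8 in SP8. That of *Icos*, another costimulatory receptor gene, was 6.43 and 10.8 in DN and DP against 25.5 and 31.8 in SP4 and SP8. That of *Nr4a3*, a nuclear receptor gene induced by T cell receptor signals, was 33.5 in DN, 9.82 in DP, 36.4 in SP4 and 32.2 in SP8, so that DP stood below the other 3 stages. The highest region of *Foxp1* was 10.9 in DN, 15.9 in DP, 24.8 in SP4 and 30.4 in SP8.

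Of the 10 genes nearest to the most far shared regions, 4 border antigen receptor loci. *Dad1* (72 regions) and *Olfr1507* (48) flank the T cell receptor α and δ locus (*Tra*), and *Zfp386* (47) and *Ighv6-5* (35) lie at the immunoglobulin heavy chain locus (*Igh*). All regions counted for these 4 genes were inside the loci. The other 6 were *3110018I06Rik* (62), *Sox4* (40), *Zmiz1* (40), *Runx1* (36), *Dyrk2* (34) and *Id2* (34). The regions of *3110018I06Rik*, within chr12:106838649-107734989, lay beside the *Bcl11b* run at chr12:107748755-107816874. The nearest TSS alone divides them between these genes. Zmiz1 is a cofactor of Notch1, the receptor that starts T cell development.

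The antigen receptor loci held 246 far shared regions, 2.16% of the total. Most V segments carry an annotation class of their own and were not counted as protein-coding. *Tra* held 120 and *Igh* 102, and the *Trb*, *Trg* and *Igk* loci held 16, 6 and 2. The TSS of a transcript of another class, such as a V segment, was overlapped by 46 of those in *Tra* and 26 of those in *Igh*. The median percentile of the *Igh* regions was highest in DN, with 89.6 in DN, 73.1 in DP, 83.1 in SP4 and 77.5 in SP8. With fold enrichment divided by the list median, 48 of the 102 were highest in DN. Over all far shared regions the median percentile was also highest in DN, with 75.8, 67.9, 70.6 and 66.4 at the same stages. The median percentile of the *Tra* regions was highest in DP, with 71.4, 76.1, 72.3 and 69.5. V segments of 1 family share sequence, so reads in them can be hard to place.

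Far shared regions often lay in runs. Joined where gaps were at most 12.5 kb, the 11372 regions formed 6063 runs, 3689 of them a single region. 374 runs held 5 or more regions, and these took in 2616 regions, 23.0% of the total. A run is named here by the gene most often nearest to its regions, and several runs reach across the sequence of more than 1 gene. The run with the most, 30 regions over 155 kb, was named by *Gse1*. The next were 27 regions over 114 kb at *Fam210a*, 23 over 130 kb at *Ppif*, 19 over 78.4 kb at *Med13l*, 18 over 88.8 kb at *Chst11* and 17 over 81.2 kb at *Socs1*, which encodes an inhibitor of cytokine signals. *Ppif*, *Chst11* and *Socs1* were themselves nearest to only 12, 15 and 9 far shared regions. The nearest TSS is a position only, and which gene a region acts on was not measured.

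By median, the far shared regions stood above the middle of every list, but not all were tall. The lower quartile of their percentiles was 56.0 in DN, 47.8 in DP, 50.9 in SP4 and 45.6 in SP8. Between 6.24% and 8.96% of them were below percentile 25 in a list. Their median percentile was 75.8 in DN, 67.9 in DP, 70.6 in SP4 and 66.4 in SP8, against 72.0, 64.7, 67.2 and 64.6 for the regions 2 to 50 kb from a TSS. Both groups were chosen for a peak in every list, so their height against the rest of a list is a description only. The lists differ in length, so percentiles are not directly comparable between stages. The median width was 431 bp, against 413 bp at 2 to 50 kb and 560 bp within 2 kb. Summits at the 4 stages lay a median of 43 bp apart from first to last, against 42 bp at 2 to 50 kb.

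The 7 highest regions by median percentile were nearest to *Oxr1*, *Rad51b*, *Dsel*, *Tox*, *Alkbh8*, *Maf* and *Epm2a*. They are shown because they are the tallest of all, in the same form as above. The printed *Oxr1*, *Tox*, *Maf* and *Epm2a* bases held no match to the CTCF, RUNX, ETS or E-box motifs. In the 300 bp window used for the motif counts below, the *Oxr1* region held an E-box match. The window of the *Epm2a* region held a RUNX and an E-box match.
Oxr1, chr15:41276907-41277027: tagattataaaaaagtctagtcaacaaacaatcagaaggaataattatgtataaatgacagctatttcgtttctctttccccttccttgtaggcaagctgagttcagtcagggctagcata
Rad51b, chr12:79499132-79499252: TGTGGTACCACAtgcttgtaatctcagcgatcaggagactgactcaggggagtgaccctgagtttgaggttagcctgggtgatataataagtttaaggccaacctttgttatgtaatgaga
Dsel, chr1:112457527-112457647: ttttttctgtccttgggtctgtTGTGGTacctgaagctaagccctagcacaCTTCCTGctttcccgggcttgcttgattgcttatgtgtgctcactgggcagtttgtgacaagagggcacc
Tox, chr4:7391727-7391847: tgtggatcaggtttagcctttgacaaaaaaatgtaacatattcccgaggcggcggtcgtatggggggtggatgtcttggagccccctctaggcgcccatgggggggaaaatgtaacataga
Alkbh8, chr9:3258822-3258942: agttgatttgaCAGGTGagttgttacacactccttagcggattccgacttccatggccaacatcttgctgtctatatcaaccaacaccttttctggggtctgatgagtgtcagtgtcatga
Maf, chr8:116004573-116004693: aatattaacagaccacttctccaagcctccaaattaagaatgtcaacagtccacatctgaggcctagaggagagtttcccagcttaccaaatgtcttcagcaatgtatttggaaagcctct
Epm2a, chr10:11492073-11492193: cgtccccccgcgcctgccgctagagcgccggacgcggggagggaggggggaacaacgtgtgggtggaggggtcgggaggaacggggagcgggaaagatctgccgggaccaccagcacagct
The *Oxr1* region had a fold enrichment of 74.5 in DN, 75.2 in DP, 70.6 in SP4 and 64.7 in SP8, and the *Tox* region, 401 kb upstream of that gene, 59.0, 61.3, 58.5 and 52.1. All 4 values were high in both. These peaks were narrow. The regions at *Oxr1*, *Rad51b*, *Dsel*, *Tox* and *Maf* were 122, 120, 124, 165 and 120 bp wide, whereas 4.60% of all far shared regions and 9 of the 100 highest were narrower than 200 bp. Where such narrow peaks come from was not tested. The same holds for the tall peaks of the *Alkbh8* and *Epm2a* regions, which were 210 and 278 bp wide.

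Although all were called at every stage, the far shared regions differed in height between stages more often than other shared regions. With fold enrichment divided by the median of its list, 5156 of 11372 (45.3%, 44.4 to 46.3) had a pair of stages more than 2-fold apart, against 33.9% of all 57855 shared regions, 36.5% of those 2 to 50 kb from a TSS and 18.5% of those within 2 kb. The median ratio of the highest to the lowest stage was 1.90, against 1.75 at 2 to 50 kb and 1.48 within 2 kb. Regions within 2 kb were also wider and more strongly called. Their median −log10 q-values were 49.7 to 60.7, against 28.4 to 44.5 in far shared regions and 27.4 to 42.5 at 2 to 50 kb. What part this has in the contrast with regions within 2 kb was not tested.

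DN was compared with DP, DP with SP4 and SP8, and SP4 with SP8, and the share was above the background in these 8 directions. DN stood more than 2-fold above DP in 1358 far shared regions (11.9%, background over all shared regions 8.15%), and DP above DN in 414 (3.64%, background 2.37%). DP stood above SP4 in 889 (7.82%, background 5.92%) and SP4 above DP in 1134 (9.97%, background 6.85%). DP stood above SP8 in 1174 (10.3%, background 7.17%) and SP8 above DP in 935 (8.22%, background 5.77%). SP4 stood above SP8 in 745 (6.55%, background 4.15%) and SP8 above SP4 in 360 (3.17%, background 2.27%). In all 8 directions the share was also above that of regions 2 to 50 kb away and lowest within 2 kb.

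The balance of the DN and DP directions depended on the scale. With each list divided by the median of its peaks in shared regions only, DN stood above DP in 902 far shared regions (background 5.21%) and DP above DN in 723 (background 4.6%), so that DN took 55.5% of the changes in place of 76.6%. On that scale DP stood above SP4 in 1034 (background 7.09%) and SP4 above DP in 963 (background 5.71%), and the larger of these 2 directions turned from SP4 to DP. The DN list was also the longest, with 150139 peaks against 104411 to 115074 in the others. All 10 T lineage marker genes had a peak within 1 kb of a TSS in every list. Of 10 myeloid marker genes, *Csf1r* and *Lyz2* among them, 8 had one in DN, 4 in DP, 3 in SP4 and 3 in SP8. Of 10 B cell, 10 erythroid and 10 thymic epithelial marker genes, 5, 5 and 4 had one in DN and in DP, 6, 5 and 3 in SP4 and 6, 5 and 4 in SP8. In the paper, cells of every stage were sorted as negative for a cocktail of lineage markers. Whether other cells were present, and what part they would have in the regions higher in DN, was not tested.

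**Figure D3:**
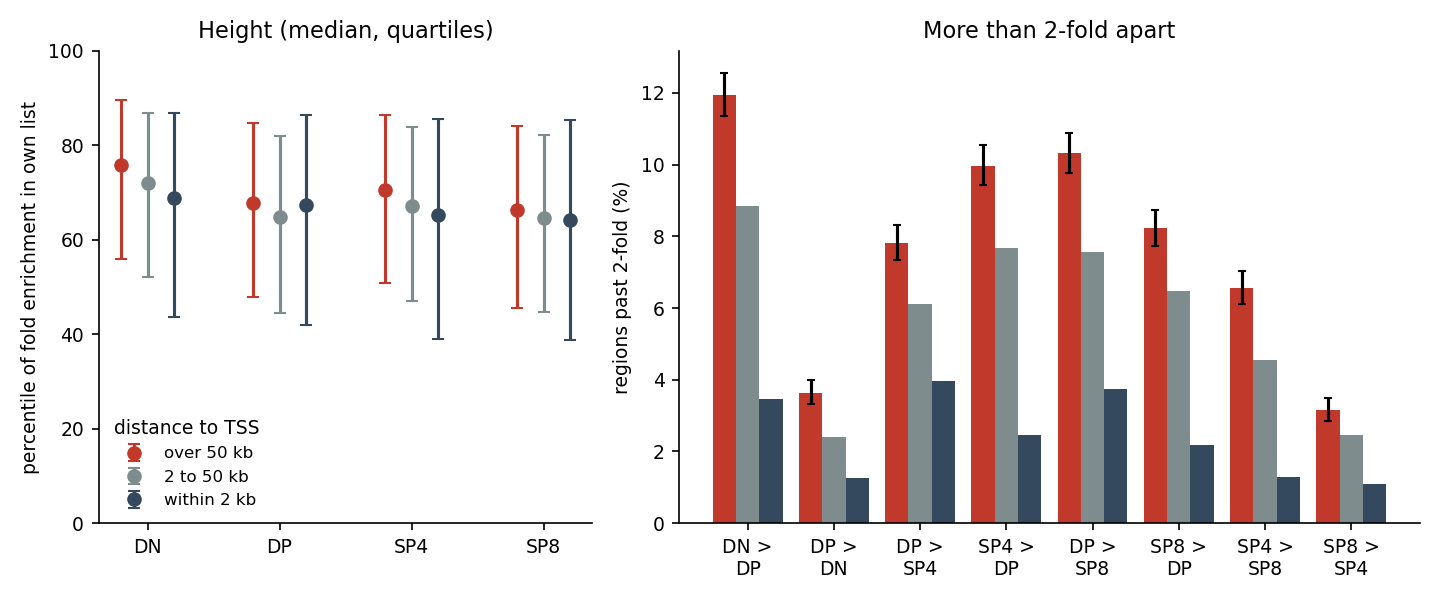
Left, percentile of fold enrichment in the list of each stage for shared regions over 50 kb, 2 to 50 kb and within 2 kb from a protein-coding TSS; points are medians and bars quartiles. Right, the share of each group that stood more than 2-fold higher at the first stage than at the second, with 95% Wilson intervals on the far regions; the far regions have the highest share in all 8 directions.

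The regions with the largest ratio toward 1 stage are described next. Toward DN, the region 141 kb from *Pon1*, inside *Ppp1r9a*, had a fold enrichment of 34.5 in DN, 4.68 in DP, 7.35 in SP4 and 7.20 in SP8. The region 199 kb upstream of *Tcf4*, which encodes an E protein, had 25.5, 4.44, 5.21 and 5.24, and that 84.6 kb from *Zfp637* had 21.9, 4.21, 4.74 and 4.58. In each of the 3, DN stood alone. Toward SP4, the region nearest to *A1bg* had 4.66 in DN, 4.21 in DP, 23.2 in SP4 and 5.24 in SP8. The regions near *Arhgap5* and inside *Aatf* had 28.0 and 28.7 in SP4 and at most 7.64 at another stage.

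Toward DP, the 3 leading regions included those 69.3 kb upstream of *Ppp2r5a*, which encodes a phosphatase subunit, and inside *Cux1*. Their summits are printed because they hold an E-box, the motif counted by direction below. In the first, the RUNX and E-box matches shared 2 bases.
Ppp2r5a, chr1:191466402-191466522: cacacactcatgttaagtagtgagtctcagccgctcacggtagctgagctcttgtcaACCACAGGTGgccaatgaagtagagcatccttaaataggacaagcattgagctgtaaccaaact
Cux1, chr5:136442704-136442824: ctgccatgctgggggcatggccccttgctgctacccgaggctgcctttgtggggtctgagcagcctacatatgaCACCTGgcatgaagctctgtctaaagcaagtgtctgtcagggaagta
The *Ppp2r5a* region had a fold enrichment of 30.1 in DP against 4.03 in DN, 6.16 in SP4 and 4.37 in SP8. The *Cux1* region had 24.1 in DP against 7.11 in DN, 6.58 in SP4 and 7.61 in SP8. Its summits in DN, DP and SP8 lay inside the printed bases, and the summit in SP4 was 691 bp away, so the SP4 height is that of another place in the region. The region 51.1 kb upstream of *Sipa1l1*, had 21.1 in DP against 4.66, 5.97 and 4.02, and its 300 bp window held an ETS and a ROR match.

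Toward SP8, the region 66.1 kb from *Egr3*, a gene of a zinc finger factor induced by T cell receptor signals, lay inside *Pebp4* and is printed as the example at a T cell gene. It held an ETS match, a motif less common in regions higher in SP8 than in far shared regions as a whole (below).
Egr3, chr14:70010760-70010880: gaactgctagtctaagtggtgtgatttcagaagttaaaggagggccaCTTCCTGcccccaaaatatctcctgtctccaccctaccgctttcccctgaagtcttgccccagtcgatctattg
Its fold enrichment was 27.4 in SP8 against 6.43 in DN, 4.91 in DP and 5.45 in SP4. The other 2 regions, 669 kb from *5730522E02Rik* and inside *Dennd1b*, had 21.6 and 29.6 in SP8 and at most 7.10 at another stage. Their windows held an NFAT and a TCF7/LEF1 match, and none of the 4 motifs in capitals.

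Sequence was not used to choose the regions. Each was searched in a 300 bp window around its median summit for 14 motifs on both strands, without mismatch. Besides those given above, the letters searched were CTTTGAT for TCF7/LEF1, AGATAA for GATA factors, TGGGAA for Ikaros, TGACTCA or else TGAGTCA for AP-1, GGGCGG for SP/KLF and AAGATGGC for YY1. They were TAGGTCA for ROR, TGGAAA for NFAT factors, CCAATCA or else CCAATGA for NFY and, with any base as N, TTCNNNGAA for STAT factors, and CTCF was searched by a degenerate consensus. Matches of different motifs may share bases. The flanks were 300 bp windows 5 kb to either side that overlapped no merged region. A match is a run of letters, not a bound site.

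E-boxes were the most common, in 45.5% of far shared regions (44.6 to 46.4), against 28.3% of flanks, 46.3% of shared regions 2 to 50 kb from a TSS and 45.1% of all merged regions. RUNX matches were in 35.4% (34.5 to 36.3), against 21.5% of flanks, 33.4% at 2 to 50 kb and 18.4% within 2 kb. ETS matches were in 35.3% (34.4 to 36.2), against 10.5% of flanks and 31.6% at 2 to 50 kb. The ETS share was above that at 2 to 50 kb on 18 of 19 chromosomes and the RUNX share on 16. By median distance, ETS matches also lay closest to the summit, at 38.5 bp, against 53 bp for RUNX, 57 bp for E-box and 47 bp for CTCF matches. The CTCF median hides separate groups. Short bins that start 70 bp before the summit, at it and 60 bp after it held 82, 86 and 71 CTCF matches.

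SP/KLF matches, common at promoters, were in 9.33% of far shared regions, against 3.31% of flanks, 10.8% at 2 to 50 kb and 43.8% within 2 kb of a TSS. GATA, Ikaros and NFAT matches were less common in far shared regions (13.8%, 22.1% and 21.8%) than in flanks (17.7%, 26.1% and 27.7%). TCF7/LEF1 matches were in 6.72% against 5.41% of flanks, and AP-1 matches in 7.43% against 5.10%. STAT, NFY, ROR and YY1 matches were in 9.08%, 5.79%, 2.43% and 1.91%, against 9.89%, 6.82%, 3.06% and 2.41% of flanks. The G+C content of the windows was 49.1% in far shared regions, 50.1% at 2 to 50 kb and 44.0% in flanks, and repeats covered 13.0%, 14.8% and 27%.

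CTCF matches were in 6.10% of far shared regions (5.68 to 6.56), against 0.102% of flanks and 3.12% of all merged regions. They were less common than among shared regions 2 to 50 kb from a TSS (8.42%, 8.12 to 8.73), and on none of 19 chromosomes was the far share the higher one. Within 2 kb the share was 2.68%, and over all other shared regions 6.68%, an order that turned when the distance limit was 25 kb (6.86% beyond, 6.41% within). With 1 mismatch allowed the shares were 17.5% in far shared regions and 25.6% at 2 to 50 kb.

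In far shared regions with a CTCF match the stages were closer together. The median ratio of the highest to the lowest stage was 1.64, against 1.92 in those without, and 27.1% of the 694 had stages more than 2-fold apart, against 46.5%. They were also narrower, at a median of 344 bp against 439 bp. CTCF and RUNX matches occurred together in 1.19% of far shared regions, where the product of their shares is 2.16%, and CTCF and ETS matches in 0.941%, where it is 2.15%. RUNX and ETS matches occurred together in 11.8%, near the product of 12.5%. With the far shared regions cut into 4 equal sets, from the lowest to the highest by median percentile, the ETS shares were 30.6%, 33.7%, 35.1% and 41.8%. The RUNX shares were 33.2%, 32.0%, 36.1% and 40.2%, and the CTCF shares 6.12%, 7.25%, 6.72% and 4.33%, so of these 3 motifs ETS alone went up at each step.

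**Figure D4:**
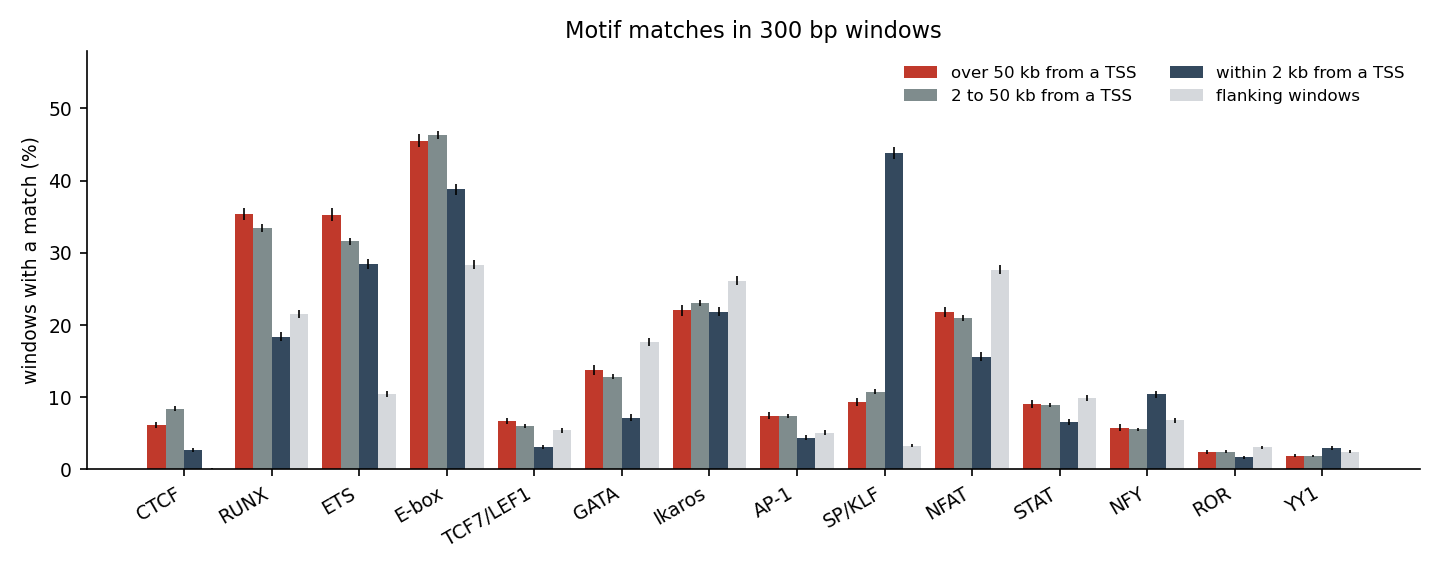
Share of 300 bp windows with at least 1 match to each of 14 motifs, in shared regions over 50 kb, 2 to 50 kb and within 2 kb from a protein-coding TSS and in flanking windows; bars give 95% Wilson intervals. RUNX, ETS and E-box matches are above the flanks in the far regions, and SP/KLF matches peak within 2 kb at 43.8%.

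Matches to the E-box separated the far shared regions that were higher in DP from those higher in the mature stages. An E-box was in 678 of the 889 far shared regions that stood more than 2-fold higher in DP than in SP4 (76.3%, 73.4 to 78.9) and in 892 of the 1174 higher in DP than in SP8 (76.0%, 73.5 to 78.3). It was in 27.5% (25 to 30.2) of those higher in SP4 than in DP and in 29.8% (27 to 32.9) of those higher in SP8 than in DP. The share over all far shared regions was 45.5%, and both DP groups were above it on 19 of 19 chromosomes. Between DN and DP the shares were closer, with 44.4% in the regions higher in DN and 48.6% in those higher in DP.

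RUNX and ETS matches followed other contrasts, and that of DP with SP8 as well. RUNX matches were in 49.9% (47.3 to 52.6) of the far shared regions higher in DN than in DP and in 24.6% (20.7 to 29.0) of those higher in DP. They were in 47.5% of those higher in SP8 than in SP4 and in 29.3% of those higher in SP4. ETS matches ran the other way. They were in 28.5% of the regions higher in DN than in DP against 46.9% of those higher in DP. They were in 29.2% of those higher in SP8 than in SP4 against 48.3% of those higher in SP4. Between DP and SP8, ETS matches were in 42.5% of the regions higher in DP and 26.0% of those higher in SP8. The RUNX shares were 31.2% and 45.1%. Between DP and SP4 the shares were closer, at 37.1% and 31.7% for ETS and 39.4% and 38.2% for RUNX. CTCF matches were below their overall share in all 8 directions, from 0.537% to 5.52%, and the intervals of the regions higher in DN than in DP (4.43 to 6.87) and in SP8 than in DP (3.43 to 6.14) hold the overall share. A ROR match was in 23 of the 414 regions higher in DP than in DN (5.56%, 3.73 to 8.20), against 2.43% of all far shared regions. This share was above the overall one on 12 of 19 chromosomes. At 2 to 50 kb from a TSS it was 7.72%, against 2.47% of all regions there.

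With lists divided by the median of their peaks in shared regions the E-box was in 74.9% and 75.3% of the regions higher in DP than in SP4 and SP8, and RUNX matches in 52.3% and 27.1% of those higher in DN and in DP. Near values were found closer to genes. Among shared regions 2 to 50 kb from a TSS, an E-box was in 76.8% of those higher in DP than in SP4 and in 30.1% of those higher in SP4, and RUNX matches were in 48.5% of those higher in DN than in DP and in 20.3% of those higher in DP. The mean G+C content was 50.6% in far shared regions higher in DP than in SP4 and 46.4% in those higher in SP4, and 47.8% and 48.3% in those higher in DN and in DP. How far base composition enters these shares was not tested.

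**Figure D5:**
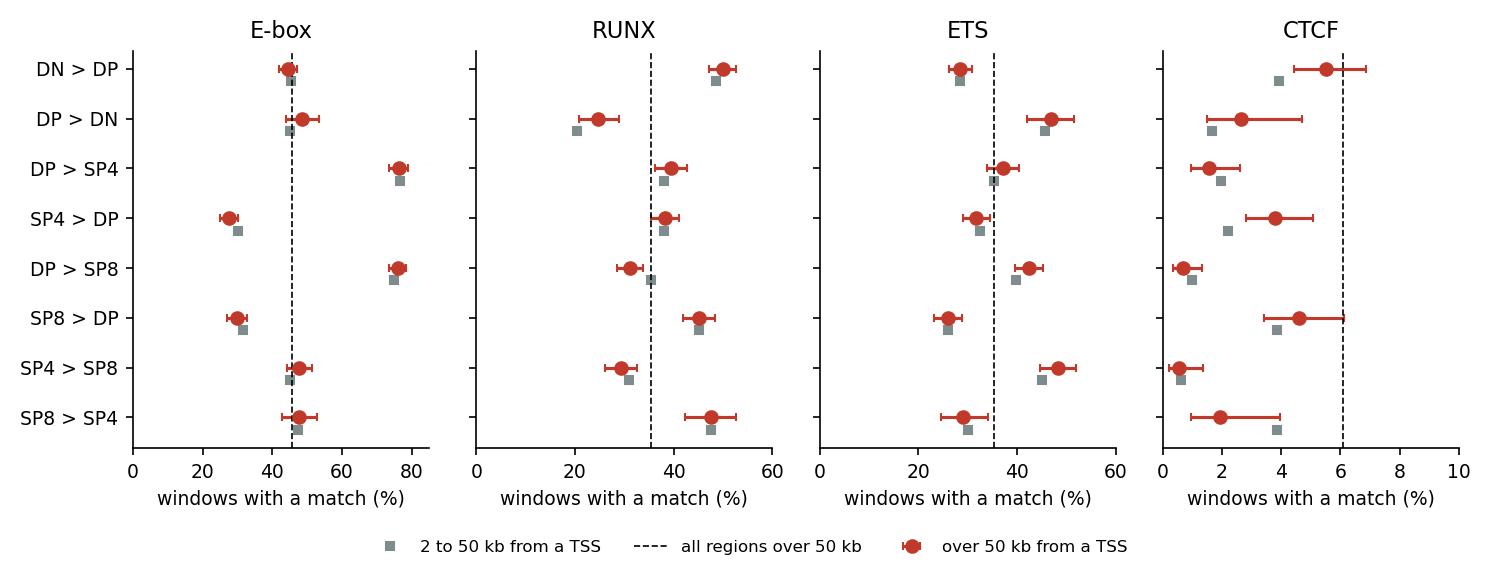
Share of windows with an E-box, RUNX, ETS or CTCF match among regions that stood more than 2-fold higher at the first stage than at the second. Circles are far shared regions with 95% Wilson intervals, squares are shared regions 2 to 50 kb from a TSS, and the dashed line is the share over all far shared regions; the E-box panel spans 27.5% to 76.3%.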

How the data were processed

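ATAC-seq libraries of DN, DP, SP4 and SP8 thymocytes from 4 mice were processed by the authors, who aligned reads to mm10 with BWA, down-sampled deeper libraries to the median depth, pooled the mice of a stage and called peaks with MACS2 (shift -50, extension 100). The file names state 5% FDR and no blacklisted regions. In the deposited lists each peak has a fold ratio over its surroundings and a −log10 q-value, unchanged from MACS2. They hold no read counts, so the reads behind each height are unknown, and pooling hides differences between mice.

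Peaks were merged, measured against GENCODE M21 and searched for motifs in the mm10 sequence of RefSeq with python 3.11.15 and pandas 2.3.3. Heights were compared as percentiles within a list, or divided by the list median. Far sequence was assigned to the gene with the nearest TSS. Shares have 95% Wilson intervals (scipy 1.17.1) for counting error only. No test between stages was made. The scripts were tested on simulated lists. Members, gene lists, markers and motifs were chosen with earlier results of these data known. Regions were named by rule: the 8 most distant, the 8 highest, the 3 leading toward each stage, and 4 on each side of the distance limit. The lowest of the 8 highest is not reported here. Genes were named where they were nearest to the most regions, or were T cell genes with 3 or more. Their highest regions, the receptor loci, and other motif values were singled out after values were seen.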

Additional observations from a re-analysis of the deposited data

How the results depend on the processing

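The number of far shared regions, 11372, depended mainly on the distance limit and the TSS set. It was 20145 beyond 25 kb, 5323 beyond 100 kb and 2554 with the TSSs of all GENCODE transcripts, and between 10117 and 11678 under the other alternatives. Their intergenic share moved from 45.1% to 42.1%, 48.1% and 50.4% under these 3 settings, and their CTCF share to 6.86% beyond 25 kb, 5.47% beyond 100 kb and, with 1 mismatch allowed, 17.5%. The CTCF share of other shared regions, 6.68%, moved to 7.04% when peaks within 100 bp were merged, 6.95% with equal list lengths, 6.13% without a width limit, 6.41% with the 25 kb limit, 7.11% in whole regions and 21.3% with 1 mismatch. It was 8.42% at 2 to 50 kb from a TSS, a group chosen after seeing the data. The number of regions past 2-fold was 5156 and stayed between 4985 and 5060 under the other 2-fold settings. With over 25 percentile points between stages in place of 2-fold it was 6016, and DP above DN went from 414 to 711, SP4 above SP8 from 745 to 1134 and SP8 above SP4 from 360 to 644. Leaving out the antigen receptor loci or regions under 200 bp, also chosen after seeing the data, moved no share past its interval. No paired analysis was possible because the peaks were called on pooled mice, so that no replicate could be left out either. The lists give no read counts, so how depth limits the calling of weak regions was not measured.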

Other observations

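The strands of neighbouring CTCF matches were also recorded. Of 693 far shared regions with matches on 1 strand only, 342 had them on the plus strand and 351 on the minus strand. Among 164 pairs of such neighbours over 10 to 500 kb apart, 100 pointed the same way, 40 away from each other and 24 toward each other. Among 476 pairs over 500 kb apart these numbers were 246, 105 and 125. Other CTCF sites between the neighbours, which lie nearer to genes or miss the strict consensus, were not counted.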
